A study of Mus musculus with 8 samples.

Results

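The genes described here are the general splicing factors: SR proteins (Srsf genes), heterogeneous nuclear ribonucleoproteins (Hnrnp genes), the Sm and U1/U2 snRNP proteins named Snrp, the SF3a and SF3b subunits (Sf3a and Sf3b genes) and the U2 auxiliary factor (U2af genes). Membership was set by gene symbol, with earlier results of these data known. Of 61 mouse gene symbols that match these names, 54 had a probe on the array, and all 54 were among the 12736 named genes tested. The 7 without a matched probe were Srsf11, Snrpert and 5 pseudogenes. The muscle was the fast-twitch extensor digitorum longus (EDL) of the lower leg, from 8 male C57BL/6 mice. In the 4 PCKO mice an inducible knockout, specific to skeletal muscle, targeted the coactivators p300 (Ep300) and CBP (Crebbp) by the protocol text, while the genotype label names CBP alone. The 4 controls were wild type (WT). Tamoxifen gavage for 5 days began at an age of 13 to 15 weeks, and tissue was taken 1 day after the last gavage following a 4 h fast. That treatment text stands with both groups, and the labels do not name the driver of the recombinase.

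Splicing removes introns in a stepwise assembly. The U1 snRNP reads the donor site, U2AF binds the acceptor region and helps the U2 snRNP, with its SF3a and SF3b complexes, settle on the branch site. Each of these snRNPs is built on a ring of Sm proteins. SR proteins bind exonic sequences and mostly favour inclusion, whereas hnRNPs coat nascent transcripts and often oppose them. Skeletal muscle relies on this machinery, together with tissue-restricted regulators, to make the isoforms of its contractile proteins.

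RefSeq promoter sequences (assembly GRCm38.p6) were found for 47 of the 54 genes. The windows of Srsf12, Hnrnpl and Sf3b3 are shown because these were among the 4 genes more than 2-fold higher in PCKO muscle, and that of Sf3b1 because it fell most among the SF3 subunits on the percentile scale. Each is the 250 bases before the annotated start, 5′ to 3′ on the gene's strand, and capitals mark matches on either strand to the CRE core TGACG, the ETS core CCGGAAG or the GC box GGGCGG. The windows lie at chr4:33209022-33209271, plus strand, at chr7:28810640-28810889, plus strand, at chr8:110846804-110847053, minus strand, and at chr1:55027479-55027728, minus strand.
Srsf12: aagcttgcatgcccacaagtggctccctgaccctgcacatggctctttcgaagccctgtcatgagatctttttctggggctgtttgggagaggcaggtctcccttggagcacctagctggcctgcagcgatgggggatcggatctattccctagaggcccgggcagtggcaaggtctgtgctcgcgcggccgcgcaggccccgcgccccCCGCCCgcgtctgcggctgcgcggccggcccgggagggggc
Hnrnpl: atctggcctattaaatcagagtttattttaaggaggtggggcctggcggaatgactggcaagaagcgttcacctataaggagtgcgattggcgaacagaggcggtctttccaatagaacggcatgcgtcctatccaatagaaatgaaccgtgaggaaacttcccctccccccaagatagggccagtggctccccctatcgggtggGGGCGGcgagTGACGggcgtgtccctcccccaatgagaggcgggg
Sf3b3: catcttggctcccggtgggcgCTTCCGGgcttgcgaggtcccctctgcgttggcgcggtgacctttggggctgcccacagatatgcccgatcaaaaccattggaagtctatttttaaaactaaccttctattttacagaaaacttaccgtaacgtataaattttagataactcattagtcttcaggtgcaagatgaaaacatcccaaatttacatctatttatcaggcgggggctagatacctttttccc
Sf3b1: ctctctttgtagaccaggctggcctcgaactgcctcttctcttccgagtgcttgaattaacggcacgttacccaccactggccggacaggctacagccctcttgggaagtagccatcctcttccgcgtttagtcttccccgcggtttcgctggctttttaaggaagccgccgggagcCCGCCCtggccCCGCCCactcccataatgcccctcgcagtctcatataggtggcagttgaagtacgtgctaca
Srsf12 held 1 GC box, Hnrnpl held 1 CRE core and 1 GC box, Sf3b3 held 1 ETS core, and Sf3b1 held 2 GC boxes. Among all 64 start windows of these genes, 24 (37.5%) held the CRE core, against 17.8% of the 32851 windows of all genes. The ETS core stood in 17 windows (26.6%, against 6.91%) and the GC box in 42 (65.6%, against 32.7%). By gene, a CRE core occurred in 12 of the 28 matched genes that were higher in PCKO muscle, 1 of the 8 that were lower and 7 of the 11 that did not pass the test. The ETS core occurred in 10, 2 and 2 of these genes, and the GC box in 19, 8 and 6. The windows of all genes were not limited to genes tested on these arrays, whereas every general splicing factor shown was tested, so these shares compare unlike sets. These matches are a description of the letters, without a test and without evidence of binding.

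A single-colour array was run per mouse, with 24207 to 25673 of 55681 probes (43.5% to 46.1%) well above background, and no spot was saturated. Levels are log2 processed intensities minus the 75th percentile of that array, so 0 is the level of that percentile. Differences are PCKO minus WT ± standard error, n = 4 mice per group, with adjusted p from limma over all genes tested, and a gene past 0.05 is said to have risen or fallen. On this scale Ep300 differed by -1.44 ± 0.11 and Crebbp by -0.70 ± 0.11. The place of these probes relative to the deleted part is unknown, so they do not check the deletion. A second scale centred each array on 7 probes for spiked-in control RNA. The 75th percentile relative to these controls was -3.20 to -2.40 in the PCKO mice and -3.89 to -3.21 in WT, so the groups barely parted. PCKO replicate 4 stood highest and had the lowest mean log2 spike-in signal, 9.68 against 10.20 to 10.66 on the other arrays. The means were -2.80 ± 0.34 in PCKO and -3.48 ± 0.30 in WT (SD, n = 4), a difference of 0.68 (p = 0.0286 by a two-sided exact permutation test, which cannot go lower with 4 against 4 mice). On the spike-in scale every gene's difference was therefore 0.68 higher, and the fit gave the same standard error, 0.31, to each of these genes. An error in centring an array shifts all its genes together, but the fit treats it as separate in each gene. Adjusted p on this scale can therefore be too small, and the counts that rest on it too high. Crebbp then differed by -0.02 and Ep300 by -0.77. On the percentile scale all 7 skeletal muscle fibre markers were lower in PCKO, with a summed linear level of 1948 to 2395 against 6092 to 7573. Endothelial, macrophage, fibroblast, smooth muscle, satellite cell and adipocyte markers also had lower sums in every PCKO mouse on that scale (5 of 6, 4 of 5, 6 of 6, 6 of 6, 2 of 4 and 1 of 4 tested genes lower), and no marker list had more than 1 gene higher. On the spike-in scale 4 of the 7 fibre markers and 4 of the 6 fibroblast markers were lower, and the median differences of the endothelial, macrophage and smooth muscle lists were -0.10, -0.18 and -0.14. There 3 of 5 red blood cell markers were higher, with a list median of 0.73, against 0.73 over all genes. The part of any of these in the results was not tested. In bulk muscle, fewer cells of a type and less RNA per cell cannot be told apart.

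General splicing factor transcripts were mostly higher in PCKO muscle. Of the 54 genes, 30 rose and 9 fell, where 38.3% of all genes tested rose and 32.7% fell. Their median difference was 0.23, against 0.06 over all genes. In 31 genes every PCKO mouse was above every WT mouse and in 8 every PCKO mouse was below, against backgrounds of 36.1% and 29.7%. Most changes were small, since only Srsf12, Snrpn, Hnrnpl and Sf3b3 exceeded 2-fold upwards (background 11.7%) and none did downwards (background 14.0%). After quantile normalization 36 rose and 7 fell, with backgrounds of 43.2% and 29.0% and a median of 0.46 against 0.15. On the spike-in scale 39 rose and 0 fell (0 also at an unadjusted p under 0.05, limma), with backgrounds of 53.5% and 9.45% and a median of 0.91 against 0.73. The members' median was above that of all genes on the percentile and the quantile scale, and the spike-in scale, which adds 1 constant to every gene, keeps the excess of the percentile scale by construction. Of these 3 scales, members passed as lower on the percentile and quantile scales only. Within the 2 slide rows, each holding 2 mice of each group, 22 rose and 6 fell in the first (28.1% and 24.4% of all genes there), and 19 rose and 4 fell in the second (27.3% and 24.4%). On the spike-in scale 20 rose in the first row alone (26.3% of all genes) and 37 in the second (53.7%), against 39 in all arrays, and 0 fell in either row (6.71% and 7.51% of all genes, 0 members also at an unadjusted p under 0.05). The median level of the 54 genes, each centred on its own mean in WT, was 0.19 to 0.30 in the 4 PCKO mice and -0.08 to 0.04 in WT, without overlap. The same median over all genes tested was 0.05 to 0.08 in PCKO and -0.04 to 0.03 in WT, also without overlap.

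**Figure D1:**
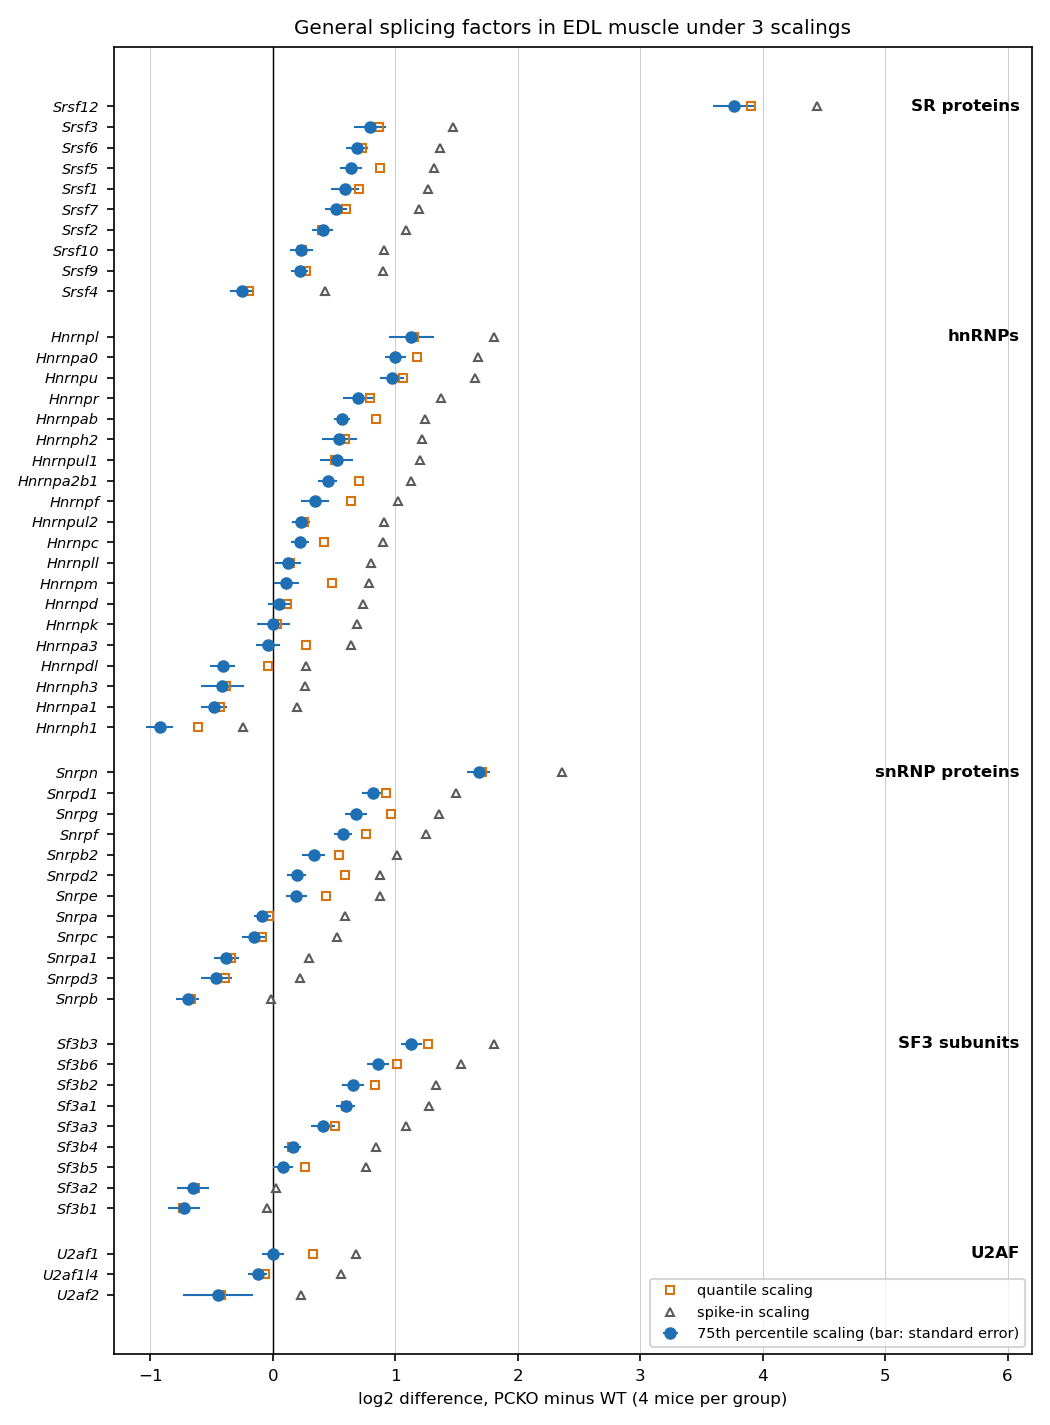
Log2 difference, PCKO minus WT, of each of the 54 genes (vertical axis, by family), on the 75th percentile scale (filled circles, bars are standard errors), after quantile normalization (squares) and on the spike-in scale (triangles), 4 mice per group. Srsf12 lies farthest right at a fitted 3.76. Its WT signal was not well above background, so a bound of 3.81-fold is given, for the percentile scale only. All triangles lie 0.68 to the right of the circles, which puts 6 of the 9 genes that fell on the percentile scale above 0.

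SR proteins, which read exonic enhancers through their RNA recognition motifs, mostly rose. Of the 10 genes, 8 rose and 1 fell, where 38.3% of all genes tested rose and 32.7% fell. The median of the SR proteins was 0.55, against 0.06 over all genes. Srsf12, a little-studied SR family member, read -1.74, -1.47, -2.11 and -1.94 in the PCKO mice and -5.65, -5.18, -5.74 and -5.73 in the WT mice. It was well above background on all 4 PCKO arrays and on none of the WT arrays, and the groups were far apart. With the WT level taken at the lowest detectable signal, Srsf12 was at least 3.81-fold higher on the percentile scale (fitted difference 3.76 ± 0.17, adjusted p = 3.00e-07). A gene needed clear signal on at least 4 arrays to be tested, and Srsf12 reached that through its PCKO mice alone. Its adjusted p and its place among the rises are therefore not free of that selection. Under a normexp background correction with an offset of 50 the Srsf12 difference was only 0.37 (adjusted p = 0.04995). The bound does not hold under that correction, so the size of the rise depends on how near-background signal is treated.

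Srsf3, the smallest SR protein and a regulator of both splicing and export, read 4.19, 4.08, 4.33 and 3.88 in PCKO and 3.19, 3.36, 3.15 and 3.60 in WT. All PCKO mice stood above all WT mice, a difference of 0.80 ± 0.13 or 1.74-fold (adjusted p = 6.25e-04). Srsf6 (0.69), Srsf5 (0.64), Srsf1 (0.59), the founding member also known as SF2/ASF, and Srsf2 (0.41), which binds purine-rich and cytosine-rich exonic motifs, rose on all 3 scales. Srsf7 rose by 0.52, but the mean of its probes gave 0.21 (adjusted p = 0.16) and the deposited values -0.11. Srsf9 rose by 0.22 (adjusted p = 0.0173). Srsf10 read 0.86, 0.60, 0.70 and 0.55 in PCKO and 0.30, 0.55, 0.47 and 0.45 in WT. The lowest PCKO and the highest WT mouse met, and its difference of 0.23 ± 0.09 did not pass (adjusted p = 0.0502, 95% interval 0.02 to 0.45). Srsf4 differed by -0.25 ± 0.10 (adjusted p = 0.0439) with overlapping groups, by -0.19 after quantile normalization (adjusted p = 0.0936) and by 0.43 on the spike-in scale, where its sign turned. Its call was lost in 11 of 20 alternatives. Such counts of lost calls leave out the fits of a single slide row.

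More hnRNPs rose than fell. Of 20 genes, 11 rose (55.0%), 3 fell (15.0%) and 6 did not pass, against 38.3% higher and 32.7% lower among all genes. Their median was 0.23. Hnrnpl, which binds CA-rich elements, read -0.74, -1.18, -0.92 and -0.37 in the PCKO mice against -1.86, -2.07, -1.62 and -2.18 in WT. The PCKO mice spread widely yet all lay above WT, at 2.19-fold (1.13 ± 0.19, adjusted p = 6.08e-04). This call was lost under normexp, where the difference was 0.34 (adjusted p = 0.0508). Hnrnpa0, an hnRNP A/B protein that binds AU-rich elements, read 5.25, 5.39, 5.28 and 5.33 against 4.18, 4.39, 4.21 and 4.46. Hnrnpu, the nuclear matrix protein also called SAF-A, read 4.50, 4.33, 4.27 and 4.45 against 3.24, 3.52, 3.35 and 3.56. Both genes were about as far apart between groups, with no overlap, at 0.998 ± 0.09 (adjusted p = 1.18e-05) and 0.97 ± 0.10 (adjusted p = 2.98e-05). Hnrnpr, a relative of Syncrip, read 4.39, 4.51, 4.30 and 4.57 in PCKO and 3.56, 3.92, 3.54 and 3.98 in WT, again without overlap (0.69 ± 0.13, adjusted p = 0.00104). Hnrnpab rose by 0.56 by its brightest probe, while a second probe, well above background on all 8 arrays, differed by 0.09. Other smaller rises were those of Hnrnph2 (0.54), Hnrnpul1 (0.52), Hnrnpa2b1 (0.45), Hnrnpf (0.34), Hnrnpul2 (0.23) and Hnrnpc (0.22), a protein of the core hnRNP particle. The last 3 lost their calls in 5, 5 and 8 of the alternatives, which include leaving out single mice. In the single slide rows, which those counts leave out, Hnrnpc did not pass either (adjusted p = 0.0921 and 0.394, limma). Hnrnpa2b1 did not pass in the second row (adjusted p = 0.0502, limma).

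Hnrnph1, a G-run binding protein, had the largest fall of the 54 genes on the percentile scale. Its probe read 5.48, 5.82, 5.59 and 5.63 in PCKO and 6.48, 6.81, 6.45 and 6.48 in WT. Each PCKO mouse was below each WT mouse, at -0.92 ± 0.11 or 1.90-fold lower (adjusted p = 8.83e-05), while on the spike-in scale the difference was -0.25 (adjusted p = 0.49). Hnrnpa1, a classical exonic silencer binding protein, read 2.71, 2.95, 3.19 and 2.97 in PCKO against 3.43, 3.50, 3.45 and 3.35 in WT. This probe fell by 0.48 (adjusted p = 0.00324) without overlap and turned sign on the spike-in scale (0.20), and a second probe moved the other way, as given with the probe ratios. Hnrnpdl, a close relative of Hnrnpd (AUF1), read 6.41, 6.54, 6.51 and 6.25 against 6.68, 6.79, 6.81 and 7.06. Its groups did not overlap, and its fall of 0.41 (adjusted p = 0.00701) shrank to -0.04 after quantile normalization and became 0.27 on the spike-in scale. Among those that did not pass, Hnrnpk, a poly(C) binding protein, differed by 0.01 (95% interval -0.30 to 0.31) and Hnrnph3 by -0.41 ± 0.18 (adjusted p = 0.0629). Hnrnpm and Hnrnpa3 differed by 0.11 and -0.04 on the percentile scale but rose by 0.48 and 0.27 after quantile normalization.

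**Figure D2:**
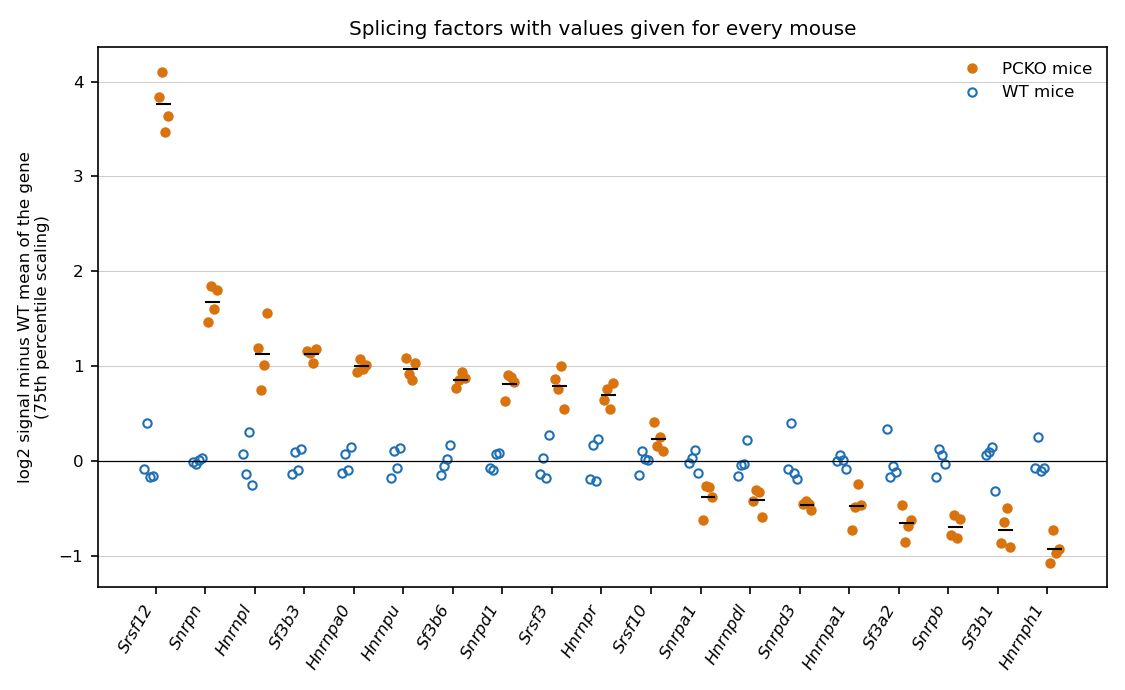
Log2 level minus the gene's WT mean (vertical axis, percentile scale) of the 19 genes given mouse by mouse, with 1 point per mouse (filled, 4 PCKO; open, 4 WT) and a bar at the PCKO mean. The groups do not overlap except in Srsf10, Srsf12 shows the widest gap with WT readings that were not well above background, and on the spike-in scale 5 of the 8 genes shown lower here turn higher.

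Of the 12 snRNP protein genes 6 rose and 3 fell, where 38.3% of all genes tested rose and 32.7% fell. On the spike-in scale 7 rose (58.3%, near the 53.5% of all genes) and 0 fell, against 9.45% of all genes (0 also at an unadjusted p under 0.05, limma). Genes of the Sm ring were called in both directions on the percentile scale, as was common among all genes. The ring is assembled from the sub-complexes D1 with D2, E with F and G, and B with D3. On the percentile scale Snrpd1, Snrpd2, Snrpf and Snrpg rose, Snrpe did not pass, and Snrpb and Snrpd3 fell. Snrpd1 (Sm D1) read 4.36, 4.63, 4.61 and 4.56 in PCKO and 3.66, 3.63, 3.80 and 3.81 in WT. It was higher in every PCKO mouse, by 0.81 ± 0.09 or 1.76-fold (adjusted p = 4.85e-05), by its brightest probe. A second Snrpd1 probe on the same accession, well above background on all 8 arrays, differed by -0.02, so the rise rests on 1 of its 2 probes. Snrpg and Snrpf rose by 0.68 and 0.57. The rise of Snrpd2 (0.20, adjusted p = 0.0482) was lost in 12 of 21 alternatives, the replicate block among them, and Snrpe differed by 0.19 (adjusted p = 0.0656), passing after quantile normalization (0.43). Snrpb (Sm B/B′) read 2.33, 2.54, 2.31 and 2.50 in PCKO against 2.95, 3.24, 3.17 and 3.08 in WT. Its groups were apart, at -0.69 ± 0.09 or 1.62-fold lower (adjusted p = 1.88e-04), with -0.02 on the spike-in scale. Snrpd3 (Sm D3) read 3.53, 3.56, 3.53 and 3.47 against 3.90, 4.38, 3.86 and 3.79. It fell by 0.46 (adjusted p = 0.0108) without overlap, though on the spike-in scale its difference was 0.22.

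Snrpn encodes SmN, an imprinted counterpart of Sm B that is best known from brain, and changed most among the snRNP protein genes. It read 3.13, 3.51, 3.27 and 3.47 in the PCKO mice and 1.65, 1.64, 1.67 and 1.69 in the WT mice. The 4 WT values lay between 1.64 and 1.69, far below PCKO, a 3.20-fold difference (1.68 ± 0.09, adjusted p = 9.73e-07). Its other 2 probes were also higher, by 1.97 and 2.36. Of the specific U1 and U2 proteins, Snrpb2 (U2 B′′) rose by 0.33, and Snrpa and Snrpc, both of the U1 snRNP, differed by -0.09 and -0.15 without passing. Snrpa1 (U2 A′), the partner of U2 B′′ on U2 snRNA, read 2.61, 2.97, 2.95 and 2.85 in PCKO against 3.20, 3.25, 3.35 and 3.1 in WT. The groups did not overlap, and it fell by 0.38 on the percentile scale (adjusted p = 0.00848) but differed by 0.30 on the spike-in scale.

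The SF3 complexes hold the branch site in the U2 snRNP. Of 9 subunits, 5 rose (55.6%) and 2 fell (22.2%), against 38.3% and 32.7% of all genes, with a median of 0.41. Sf3b3, the scaffold subunit SF3b130, read 5.01, 4.99, 4.89 and 5.03 in PCKO and 3.72, 3.95, 3.76 and 3.99 in WT. Every PCKO mouse was above every WT mouse, by 2.19-fold (1.13 ± 0.09, adjusted p = 5.85e-06). Sf3b6 (p14), which contacts the branch-site adenosine, read 4.92, 5.01, 5.08 and 5.02 against 4.00, 4.10, 4.17 and 4.32. It too was without overlap, at 0.86 ± 0.09 (adjusted p = 3.25e-05). Sf3b2, Sf3a1 and Sf3a3 rose by 0.66, 0.60 and 0.41, and all 5 of these rose on each of the 3 scales. Sf3b4 (0.16, adjusted p = 0.0566) and Sf3b5 (0.08) did not pass.

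Sf3b1, the HEAT-repeat subunit that clamps the branch helix, read 0.74, 0.97, 1.10 and 0.70 in PCKO and 1.67, 1.70, 1.75 and 1.29 in WT. The highest PCKO mouse stayed below the lowest WT mouse, at 1.65-fold lower (-0.72 ± 0.13, adjusted p = 0.00117), whereas on the spike-in scale the difference was -0.05. Sf3a2, the SF3a subunit SF3a66, read 2.55, 2.16, 2.33 and 2.39 against 3.35, 2.84, 2.96 and 2.90. It fell by 0.66 without overlap (adjusted p = 0.00186) and differed on the spike-in scale by 0.02 (adjusted p = 0.954). None of the 3 U2AF genes passed on the percentile scale by limma, and 0 had an unadjusted p under 0.05. U2af1, the small subunit that reads the terminal AG of the intron, had a 95% interval of -0.20 to 0.20 around no difference, and rose by 0.33 after quantile normalization (adjusted p = 0.0131). U2af1l4 differed by -0.12, and U2af2, the large subunit that binds the polypyrimidine tract, by -0.44 ± 0.29 with an interval of -1.09 to 0.21, wide enough to hold a change as large as those of Sf3b1 or Snrpb.

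A constant scaling of an array cannot affect a ratio of 2 probes of 1 gene on the same array. For 24 of the genes with several tested probes, the log2 ratio of each other probe over the brightest probe gave 34 such pairs. In 11 of the 34 pairs (32.4%), from 10 genes, the ratio differed between the groups, against 18.9% of 3743 pairs of all genes. The ratio was higher in 4 (background 10.2%) and lower in 7 (background 8.68%), and pairs of 1 gene share their brightest probe. Leaving out single mice gave 2 to 3 higher and 4 to 6 lower, and within each slide row alone 1 was higher and 0 were lower by limma (8 and 6 lower at an unadjusted p under 0.05). The SR proteins supplied 5 of the 7 lower ratios from 9 pairs and no higher one. In Srsf3 the brightest probe differed by 0.80 while a much dimmer one differed by 0.07 (ratio -0.73 ± 0.13, adjusted p = 0.00591). The log2 ratio of that dim probe averaged -4.77 in PCKO and -4.04 in WT. The remaining Srsf3 probe went with the brightest, at 0.92, and its ratio did not pass (0.12). In Srsf1 the other probes differed by 0.11 and 0.13 against 0.59, and in Srsf7 by -0.10 against 0.52. SR protein genes are known to make noncoding isoforms with poison exons or retained introns, but where these probes lie in the transcripts was not analysed here.

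Hnrnpa1 had the largest shift in probe ratio. Its second probe, designed on another transcript accession, differed by 1.27 where the brighter differed by -0.48. Their log2 ratio was -0.29, -0.42, -0.78 and -0.72 in PCKO and -2.44, -2.51, -1.96 and -2.30 in WT. The groups were apart by 1.75 ± 0.16 (adjusted p = 0.00014), so the direction given for Hnrnpa1 depends on the probe, and the mean of its probes was 0.40 higher. In Srsf10 the ratio of a dimmer probe to the brightest was -3.37, -3.54, -3.59 and -2.81 in PCKO against -2.61, -1.96, -2.21 and -2.47 in WT. It was lower in all PCKO mice, with a difference of -1.01 ± 0.21 (adjusted p = 0.0098), with both probes on 1 accession. Snrpd1 (-0.83 ± 0.09, adjusted p = 0.00049) and Hnrnpab (-0.48 ± 0.12) had lower ratios too, and Snrpn (0.68), Hnrnpdl (0.57) and Hnrnpk (0.43) higher ones. The Hnrnpk groups overlapped, the ratio of Hnrnpdl was 0.20 after quantile normalization (adjusted p = 0.253), and that of Snrpn turned to -0.55 under normexp.

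**Figure D3:**
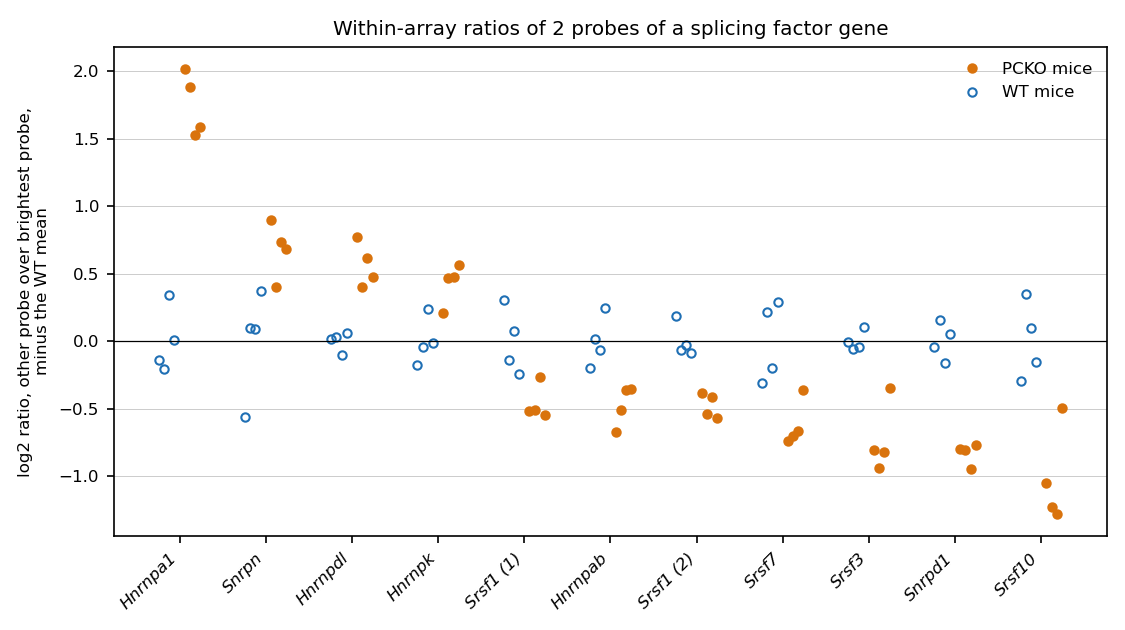
Log2 ratio of another probe over the gene's brightest probe, minus its WT mean (vertical axis), for the 11 probe pairs past an adjusted p of 0.05, with 1 point per mouse (filled, 4 PCKO; open, 4 WT) and numbers in parentheses for the pairs of Srsf1. The PCKO means lie from 1.75 for Hnrnpa1 to -1.01 for Srsf10, and only the Hnrnpk groups overlap.

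Related genes that moved apart were also set against each other within arrays, as a description of 3 pairs chosen after their values were seen. The log2 level of Snrpn minus that of Snrpb, each centred on its WT mean, was 2.25, 2.42, 2.41 and 2.42 in PCKO and 0.15, -0.16, -0.05 and 0.06 in WT. Sf3b3 minus Sf3b1 was 2.02, 1.78, 1.54 and 2.08 in PCKO and -0.20, 0.0022, -0.25 and 0.45 in WT. Hnrnph2 minus Hnrnph1 was 1.63, 1.36, 1.43 and 1.45 in PCKO and -0.32, 0.09, 0.16 and 0.08 in WT. The balance thus shifted by 5.18-fold towards Snrpn, 3.61-fold towards Sf3b3 and 2.76-fold towards Hnrnph2, as differences that no constant scaling of an array can alter.

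Other splicing genes were examined by role, in lists of 159 genes of which 155 were tested. On the percentile scale 65 rose and 25 fell, with a median of 0.17, against 38.3% and 32.7% of all genes and a median of 0.06. On the spike-in scale 105 rose and 2 fell, against 53.5% and 9.45%. Proteins of the U1, U4/U6 and U5 snRNPs had shares below those of all genes in both directions (8 of 29 rose, 27.6%, and 5 fell, 17.2%). Among them the GYF-domain protein Cd2bp2 (0.92) and the U5 GTPase Eftud2 (0.79) rose, while the U4/U6 proteins Prpf4 (-1.05 ± 0.10) and Ppih (-1.004 ± 0.07) fell on the percentile scale, with -0.37 and -0.33 on the spike-in scale. Of the branch site factors 6 of 15 rose (40.0%, near the 38.3% of all genes), led by Sugp1 (0.88) and Zrsr1 (0.82), and 1 fell. That one was Phf5a (-0.60, 0.08 on the spike-in scale), the SF3b subunit that forms the branch-site pocket with Sf3b1. Of the Prp19 complex and catalytic-step factors 12 of 27 rose (44.4%), such as Cwc22 (1.03 ± 0.07) and Ddx41 (0.86), and 3 fell, with Prpf19, the ubiquitin ligase of the complex, at -1.19 ± 0.10 (-0.51 on the spike-in scale) and Ppie at -0.32 (0.36).

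Of the SR-related proteins, which carry arginine-serine repeats beside other domains, 10 of 15 rose and 2 fell, with a median of 0.36, where 38.3% of all genes rose and 32.7% fell. Acin1 (0.98 ± 0.21) and Tra2a (0.79) rose, and Luc7l2 (-0.65) and Srek1 (-0.53) fell on the percentile scale but read 0.03 and 0.14 on the spike-in scale. Of the 8 kinases that phosphorylate SR proteins, 4 rose, including Clk2 (0.94 ± 0.08) and Srpk2 (0.62), and 2 fell. Srpk3, the muscle-restricted SR kinase, fell by 1.91 ± 0.08 and by 1.24 on the spike-in scale (adjusted p = 0.00018), while Clk3 differed by -0.82 and -0.14. RNA-binding proteins akin to hnRNPs were mixed, with 8 of 24 higher (33.3%, below the share of all genes) and 5 lower. The cold-inducible proteins Rbm3 (2.31 ± 0.08) and Cirbp (2.16 ± 0.12) rose, and Khsrp (-1.39 ± 0.13, -0.71 on the spike-in scale) and Syncrip (-1.04 ± 0.09, -0.36) fell on the percentile scale. Exon junction and nonsense-mediated decay genes had 9 of 13 higher (69.2%, against 38.3% of all genes) and 0 lower (against 32.7%), led by Magohb (1.59 ± 0.09) and the endonuclease Smg6 (0.85) (limma; 0 were lower also at an unadjusted p under 0.05).

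Sm core assembly genes were mixed (6 of 16 higher, 4 lower), with 37.5% higher against 38.3% of all genes. Gemin5, which recognises snRNA (0.74), and the export adaptor Phax (0.72) rose, whereas Gemin6 (-0.80, -0.12 on the spike-in scale) and Strap (-0.43, 0.25), both of the SMN complex, fell on the percentile scale. Of 8 minor spliceosome proteins 2 rose (25.0%) and 3 fell (37.5%), against 38.3% and 32.7% of all genes. Snrnp48 (1.17 ± 0.09) and Rnpc3 (0.79) rose. Among those that fell, Scnm1 was at -0.81 and Snrnp35 at -0.77 (-0.13 and -0.09 on the spike-in scale). Most muscle splicing regulators fell on the percentile scale. Of 17 such genes 2 rose and 11 fell (64.7%, against 32.7% of all genes), at a median of -0.67. On the spike-in scale 4 rose (23.5%, against 53.5% of all genes) and 7 fell (41.2%, against 9.45%). Their median there was 0.01, against 0.73 over all genes. Rbfox1, which binds GCATG elements beside muscle exons, differed by -4.31 ± 0.08 (-3.63 on the spike-in scale) and Rbm38 by -2.84 ± 0.12 (-2.16), while Ptbp2 (0.58) and Rbpms2 (0.54) rose. The difference between these and the general factors was not tested.

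**Figure D4:**
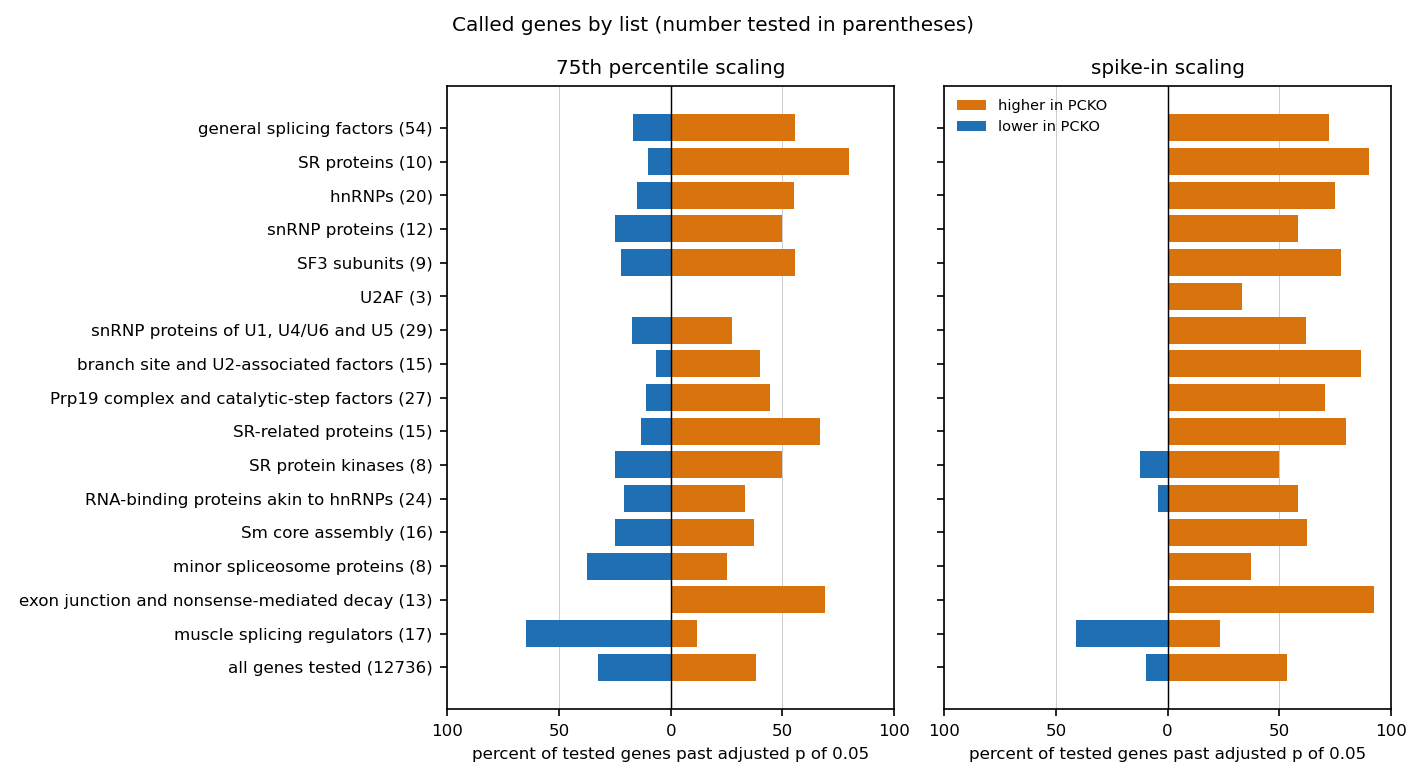
Share of tested genes past an adjusted p of 0.05 (horizontal axis, percent, higher in PCKO to the right and lower to the left) for the general splicing factors, their families, the other splicing lists and all genes, on the percentile scale (left panel) and the spike-in scale (right panel). Of the 54 general splicing factors 30 were higher and 9 lower on the percentile scale, and 39 higher and none lower on the spike-in scale.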

How the data were processed

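EDL RNA of 8 mice (4 PCKO, 4 WT) was measured on single-colour Agilent arrays, which shared 1 slide of 2 rows with 2 mice of each group per row. Per the file headers, the authors extracted the deposited intensity of each spot with Agilent's Feature Extraction (10.7.3.1), with background subtracted and without normalization between arrays. The authors also deposited a table of log2 values, of unstated normalization, which served as an alternative. Control and outlier spots were left out, spots of a probe were averaged, and values were log2 minus the array's 75th percentile. Probes well above background on at least 4 arrays were tested. Probe accessions were matched to RefSeq symbols (26576 probes with 1 symbol, 0 with several, 29105 unnamed), and a gene was its brightest probe. Probe sequences were not used here, so signal shared by related genes was not resolved. Groups were compared by two-sided moderated tests without covariates (limma 3.58.1, R 4.3.3) with Benjamini-Hochberg adjustment. The fit was tested on simulated data with independent errors and few changed genes. That simulation did not cover errors shared by all genes of an array, or the large share of genes that passed here. Probe ratios were adjusted over 3743 pairs. Mouse-by-mouse values were given for the 10 largest rises and falls without overlap, bounds, and genes with a probe ratio changed by at least 1. For each list the 2 largest changes per direction were named. A bound sets the bright group's mean against, on each dim array, the lowest signal well above background or the probe's own if higher. The members and lists were chosen with earlier results of these data known. The labels describe 4 separate mice per group. The number of arrays limits precision.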

Additional observations from a re-analysis of the deposited data

Results flagged for a closer look

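Values of the 19 genes given mouse by mouse were examined for a mouse far from the other 3 of its group, with Dixon's test at the 95% level, which flags about 1 in 20 groups by chance. Of 38 groups, 2 held such a mouse. Srsf12 in WT replicate 2 read -5.18, with the other WT mice at -5.74 to -5.65, and none of the 4 was well above background. Without that mouse the Srsf12 difference was 3.90. Hnrnph1 in WT replicate 2 read 6.81, with the others at 6.45 to 6.48. Without that mouse the Hnrnph1 difference was -0.84 (limma, adjusted p = 1.80e-04).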

How the results depend on the processing

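Of the 54 genes, 30 rose and 9 fell on the percentile scale, and leaving out 1 mouse gave 27 to 31 and 8 to 9. The second slide row alone gave 19 and 4. On the spike-in scale 0 fell in all arrays, in row 1, in row 2 and without PCKO replicate 4 (0 also at an unadjusted p under 0.05, limma), while 39, 20, 37 and 34 rose, and in the deposited values, which hold probes of 32 of the genes, 2 fell. Of the probe ratios 4 were higher, against 2 after quantile normalization, 2 under normexp, 2 without a filter on dim probes, 1 in the deposited values, 1 in each row alone, and 2 to 3 when leaving out 1 mouse. The 7 lower ratios became 4 without the filter, 0 in each row alone, and 4 to 6 when leaving out 1 mouse. The percentile relative to the spike-ins (0.68) ranged from 0.54 to 0.81 when leaving out 1 mouse.
The spike-in scale adds 0.68 to every gene. Of the genes that fell, those that turned sign on it were Hnrnpa1 at 0.20, Hnrnpdl 0.27, Sf3a2 0.023, Snrpa1 0.30, Snrpd3 0.22 and Srsf4 0.43, and of the genes that had not passed, Hnrnph3 at 0.27, Hnrnpa3 0.64, Snrpa 0.59, Snrpc 0.53, U2af1l4 0.55 and U2af2 0.23. Among the genes that turned sign in row 1 on that scale Hnrnpdl was 0.28, Snrpa1 0.10 and Srsf4 0.38. In row 2 Crebbp was 0.23, Hnrnpa1 0.50, Hnrnpa3 0.83, Hnrnpdl 0.26, Sf3a2 0.24, Sf3b1 0.20, Snrpa1 0.49, Snrpb 0.087, Snrpd3 0.49 and Srsf4 0.47. Without PCKO replicate 4 on that scale Hnrnpa1 was 0.062, Hnrnpdl 0.19, Snrpa1 0.16, Snrpd3 0.10 and Srsf4 0.30. The mean of probes gave Hnrnpa1 0.40, quantile normalization Hnrnpa3 0.27, normexp Srsf4 0.050, and the deposited values Hnrnpdl 0.0013 and Srsf7 -0.11, and the cause of these was not tested. The spike-in settings within rows and without PCKO replicate 4 were chosen after seeing the data, and normexp used the median spot signal.
Same-numbered mice correlated weakly in their deviations, at 0.057, 0.124, 0.068 and 0.053, yet each PCKO mouse correlated best with its own number. Some structure shared by number is therefore possible. The main fit did not take the numbers as pairs, and a fit with the replicate number as a block was run as an alternative. With the replicate block 28 rose and 10 fell, and 3 probe ratios were higher and 6 lower. The mean of a gene's probes could not be run for probe ratios. Signal near background limits Srsf12 and U2af2, which were not well above background on all 8 arrays.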
